A study of Mus musculus with 6 samples.

Results

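Transcripts of the presynaptic active zone and of synaptic vesicles were followed in the hippocampus of mice whose forebrain principal neurons were made to lose the histone demethylases KDM1A and KDM5C in adulthood. The set holds 41 genes, listed by symbol and matched to Ensembl identifiers, of the 48795 identifiers counted, and the calcium sensors of fusion are left out of it. Of these, 11 encode scaffolds of the active zone, 12 the priming and SNARE machinery, 14 proteins of the vesicle, 2 proteins of endocytosis and 2 presynaptic adhesion receptors. The KO mice carried Kdm1a f/f and Kdm5c f/f with CamKIIα-CreERT2, on a C57BL/6J background, and the labels call this genotype ifKO. Tamoxifen (TMX), given at 2 to 3 months of age, lets this recombinase remove exons 5 and 6 of Kdm1a and exons 11 and 12 of Kdm5c. The CamKIIα promoter restricts it to principal neurons of the forebrain, so glia and interneurons should keep both genes, and their RNA is part of the same libraries. The other group is labelled WT and also received TMX. Whether WT mice carried the recombinase or the floxed alleles is not given in the sources used here, nor is the time from TMX to dissection. There were 3 polyadenylated RNA libraries per group, and no label states that each came from its own animal. All p-values therefore rest on the spread between these samples, which may be technical. The comparison is of hippocampi in which both genes were deleted in principal neurons with hippocampi of WT mice, and no group had only 1 of them deleted.

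Neurotransmitter release takes place at the active zone, where a dense protein scaffold holds vesicles and calcium channels at the membrane. Bassoon and piccolo span this scaffold, RIM proteins tether vesicles to it, and Munc13 proteins open syntaxin so that the SNARE complex can form. SNAP-25, syntaxin and synaptobrevin then zip together and fuse the vesicle, complexin clamps the assembled complex, and NSF with its SNAP adaptor takes it apart afterwards. Synapsins tie vesicles into the reserve pool, and dynamin and amphiphysin retrieve vesicle membrane after fusion. In the hippocampus these proteins are used by the glutamatergic principal neurons and by interneurons alike.

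The libraries were of nearly equal size, with 19309576 to 19700249 counts. Kdm1a measured 38.03, 37.62 and 40.02 CPM (counts scaled to library size) in KO and 69.2 to 76.6 CPM in WT (edgeR, log2 fold change -0.93, adjusted p = 4.32e-07). Kdm5c measured 65.3 to 74.3 CPM in KO and 77.2 to 82.9 CPM in WT, and this difference did not pass the threshold (log2 fold change -0.17, adjusted p = 0.143). These are whole-gene counts, which hold exons outside the deleted ones and therefore check the deletion only in part. All 10 listed markers of hippocampal principal neurons were detected in both groups, with a summed level of 5398 to 5915 CPM in KO and 5741 to 6202 CPM in WT. Of 10 markers of thalamus, habenula and striatum, 7 could be tested, and Prkcd, Chrna3 and Ppp1r1b rose. Folds were below 0 for 2 of the 7, Tcf7l2 (log2 fold change -0.12) and Drd1 (-0.16), and neither passed. Tcf7l2 was below WT in every KO library. Drd2 and Adora2a had folds above 0 without passing. Gbx2 had no count in any library, and Pou4f1 and Chrnb4 were too low to be tested. The list summed to 104 to 114 CPM in KO and 79.4 to 88.5 CPM in WT.

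The presynaptic genes moved little, and the ones that moved were lower in KO. All 41 had enough counts to be tested. Unc13a, Rims1, Vamp1, Snap25, Unc13c and Rab3c fell and 0 rose. A gene is said to have risen or fallen where edgeR's quasi-likelihood test gave an adjusted p under 0.05, with Benjamini-Hochberg adjustment over all 16861 genes tested. The 6 falls are 14.6% of the 41, and 1.05% of all genes tested fell while 5.90% rose. Among all genes with a mean of at least 100 CPM, which most of the 41 reach, 1.88% fell and 2.48% rose. Of the 41, 0 were higher at an unadjusted p under 0.05 in edgeR, in DESeq2 or in limma-voom, and 14 were lower at that p in edgeR (34.1%). The share lower at that p was 7.66% of all genes tested and 12.3% of those with a mean of at least 100 CPM. The matching share of genes higher at that p is not given here. The count of falls was 2 without KO replicate 1, 1 without KO replicate 2 or KO replicate 3, and 3 without WT replicate 1.

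Small differences in the same direction ran through most of the set. Fitted folds were below 0 for 33 of the 41 genes (80.5%), against 51.8% of all genes tested and 65.1% of those with a mean of at least 100 CPM. The median log2 fold change of the 41 was -0.09, against -0.01 over all genes tested and -0.03 over those with a mean of at least 100 CPM. For 11 genes (26.8%) all 3 KO values were under the lowest WT value, a pattern that 11.2% of all genes and 17.3% of the more abundant genes showed. The reverse held for 1 gene, Synpr (2.44%), against 14.0% of all genes and 197 of the 2336 genes with a mean of at least 100 CPM. The summed level of the 41 was 18161, 18477 and 18373 CPM in KO libraries 1 to 3, and 19085, 19516 and 19595 CPM in WT libraries 1 to 3, so the groups did not overlap. Sums over all genes tested did not overlap either, at 988500 to 995500 CPM in KO and 1003000 to 1011000 CPM in WT. These all-gene sums are fixed by the TMM scaling factors, 1.0045 to 1.0117 in KO and 0.9894 to 0.9969 in WT. They are therefore not a measured level, and the same factors enter the sums of the 41. For genes with a mean of at least 100 CPM the sums were 652300 to 658700 CPM in KO and 670000 to 676400 CPM in WT.

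**Figure D1:**
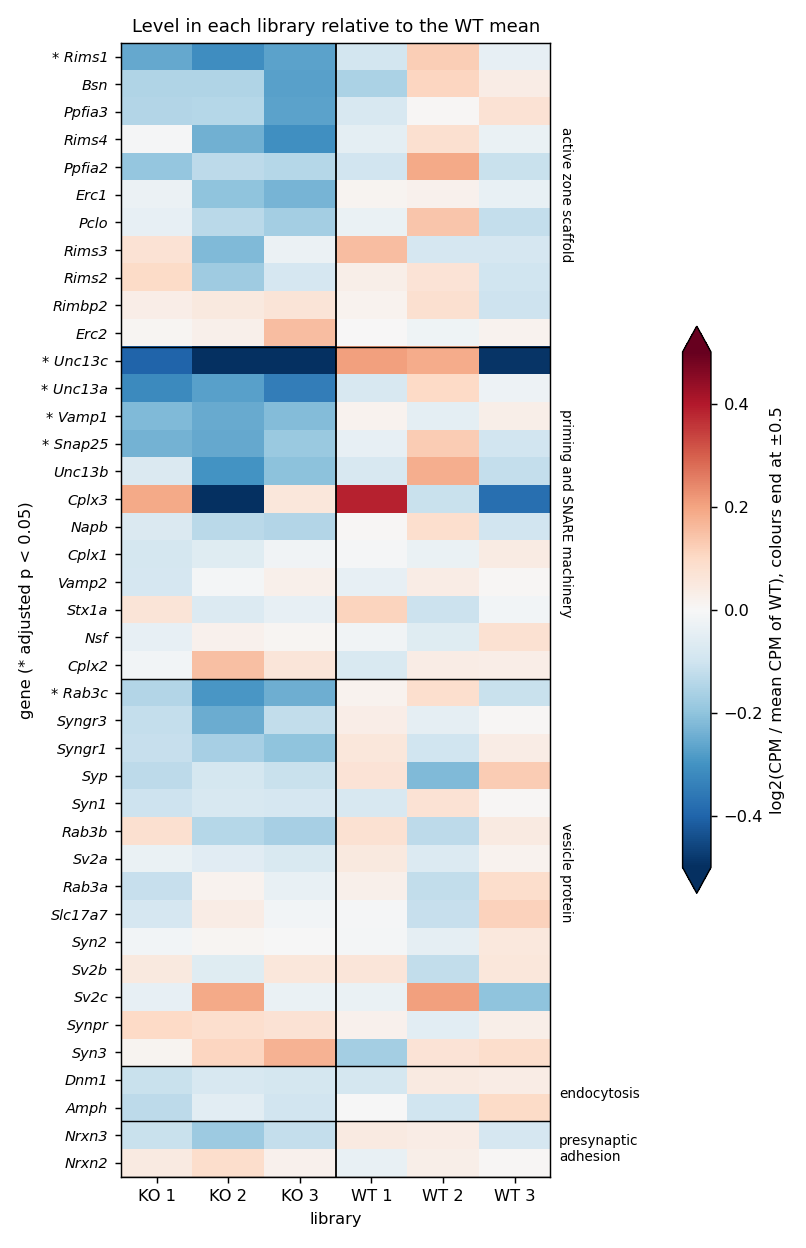
Level of each of the 41 genes (rows, grouped by role and ordered by fold) in each library (columns, KO left of WT) as log2 of its CPM over the WT mean, with blue for lower and red for higher and colours ending at ±0.5. Rims1, Unc13a, Vamp1, Snap25 and Rab3c are blue in all 3 KO libraries, and Unc13c is also low in WT 3.

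Unc13a encodes Munc13-1, the main priming factor of glutamatergic vesicles, and gave the smallest p of the set. It had 464, 479 and 456 CPM in the KO libraries, against 547, 620 and 569 CPM in the WT libraries, and the groups did not overlap. Its level fell by 19.4% (95% interval -26.1 to -12.2%, log2 fold change -0.31, SE 0.0578, adjusted p = 0.00361). The call held in all 15 alternative settings, with adjusted p-values up to 0.0412. Unc13a (ENSMUSG00000034799) lies on the minus strand of chromosome 8, 71624417 to 71671757 in GRCm38, and its exons overlap those of Colgalt1 on the opposite strand over 495 of 12623 exon bases. Colgalt1 as a whole measured 62.0 ± 3.65 CPM in KO and 66.4 ± 1.75 CPM in WT (SD, n = 3 each, log2 fold change -0.10, adjusted p = 0.416), and the groups overlapped.

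Promoter windows show what sequence lies at the start of genes of the set that fell and of one that did not pass. RefSeq windows of GRCm38.p6, running from 250 bases before to 50 bases after the start, were found for 34 of the 41 genes, including 5 of the 6 that fell. They were searched on both strands for exact matches to the blocks of RE1. This element is bound by REST, a repressor known to recruit KDM1A and KDM5C. The left block was taken as TTCAGCACC. The right block was taken from the same RE1 consensus, and the GC box, a site of Sp factors, as GGGCGG. The 4 windows below are those of Unc13a (chr8:71671708-71672007, minus strand), Syn1 (chrX:20920869-20921168, minus strand), Rims1 (chr1:22806109-22806408, minus strand) and Vamp1 (chr6:125215331-125215630, plus strand). They are written 5′ to 3′ on the strand of the gene, and capitals mark a match to any of these 3 motifs on either strand.
Unc13a: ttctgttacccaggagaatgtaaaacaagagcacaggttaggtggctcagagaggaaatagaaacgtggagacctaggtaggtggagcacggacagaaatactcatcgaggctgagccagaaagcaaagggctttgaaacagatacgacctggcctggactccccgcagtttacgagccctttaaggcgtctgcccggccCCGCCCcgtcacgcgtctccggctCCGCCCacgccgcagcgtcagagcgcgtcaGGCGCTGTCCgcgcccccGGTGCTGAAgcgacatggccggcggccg
Syn1: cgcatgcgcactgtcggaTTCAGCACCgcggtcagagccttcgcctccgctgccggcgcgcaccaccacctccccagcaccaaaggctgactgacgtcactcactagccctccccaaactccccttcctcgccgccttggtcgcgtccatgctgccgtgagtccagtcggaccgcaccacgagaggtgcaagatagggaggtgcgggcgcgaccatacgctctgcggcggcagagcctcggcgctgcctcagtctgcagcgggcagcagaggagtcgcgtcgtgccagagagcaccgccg
Rims1: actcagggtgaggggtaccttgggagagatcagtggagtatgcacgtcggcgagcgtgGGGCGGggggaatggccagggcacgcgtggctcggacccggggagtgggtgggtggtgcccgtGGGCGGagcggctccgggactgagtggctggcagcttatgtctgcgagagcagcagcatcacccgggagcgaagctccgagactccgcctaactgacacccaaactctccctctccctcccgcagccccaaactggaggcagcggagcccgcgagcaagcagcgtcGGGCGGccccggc
Vamp1: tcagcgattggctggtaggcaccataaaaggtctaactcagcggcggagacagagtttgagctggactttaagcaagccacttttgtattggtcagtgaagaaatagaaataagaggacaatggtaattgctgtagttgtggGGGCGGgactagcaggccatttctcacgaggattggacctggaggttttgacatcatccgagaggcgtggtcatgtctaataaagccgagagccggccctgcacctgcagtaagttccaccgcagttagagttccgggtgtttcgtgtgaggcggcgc

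In Unc13a both RE1 blocks, the last runs of capitals in its window, lie on the opposite strand just after the start, with 8 bases between them. Read 5′ to 3′ on the strand of the gene they are the right block at base 5 and the left block at base 23 after the start. The left block occurred in 0.371% of 32851 windows of all genes and the right block in 0.137%. Both in order, with at most 12 bases between them, occurred in 4 windows, those of Unc13a, Lhx3, Tph2 and Ptprn2. Only exact matches were counted, so a block with a changed letter would be missed. By this rule Syn1 has the left block alone, 232 bases before its start. The letters soon after that block resemble the right block without matching it exactly. The search therefore cannot tell whether Syn1 lacks a full RE1. Ppfia3 also has an exact match to the left block alone, and neither Syn1 nor Ppfia3 passed the threshold. Rims1 has 3 GC boxes, Unc13a has 2 and Vamp1 has 1. Taking the first window of each gene, GC boxes occurred in 25 of the 34 genes (73.5%), the 5 falling genes with a window included, and in 35.9% of all 27025 genes with a window. CpG pairs numbered a median of 19 in the first windows of the 34 genes and 7 in all windows. These backgrounds include genes that were not tested here, whereas all of the 34 were, and no background of tested genes alone was computed. The motifs were chosen after the fold changes were known, and a match shows only that these letters are present.

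Of the other priming factors of the Munc13 family, Unc13c had the largest fold of the set at a low level. Unc13c is known from cerebellar granule cells, where it encodes Munc13-3. It had 19.1, 11.2 and 15.2 CPM in KO, against 29.1, 28.7 and 17.96 CPM in WT, and KO replicate 1 lay above WT replicate 3. Its fold was -0.73 on the log2 scale (SE 0.187, adjusted p = 0.0289), with an interval of -54.5 to -20.5%. The call was lost with DESeq2 (adjusted p = 0.165) and without KO replicate 2 (0.109), KO replicate 3 (0.113), WT replicate 1 (0.123) or WT replicate 2 (0.111). Unc13b, which encodes Munc13-2, ranged from 76.2 to 89.1 CPM in KO and from 86.3 to 106 CPM in WT and did not pass (log2 fold change -0.19, adjusted p = 0.217). Baiap3, a Munc13 relative of dense-core vesicle traffic from a list of further presynaptic genes, went the other way, with 61.1, 61.4 and 44.6 CPM in KO against 8.87, 10.2 and 10.8 CPM in WT. It rose by 2.48 on the log2 scale (SE 0.127, adjusted p = 2.19e-08).

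Among the SNARE genes Snap25 and Vamp1 fell, and Vamp2 and Stx1a did not pass. Snap25, the plasma membrane SNARE of neurons and the second most abundant gene of the set per kilobase, had 1831, 1807 and 1895 CPM in KO. In WT it had 2096, 2357 and 2019 CPM, and every KO library lay below these. Its level fell by 14.5% (95% interval -21.5 to -6.91%, log2 fold change -0.23, SE 0.0572, adjusted p = 0.0279). That call was lost after correction for GC content (adjusted p = 0.0998) and without KO replicate 1 (0.0889), KO replicate 2 (0.11), KO replicate 3 (0.0996) or WT replicate 1 (0.052). Its longest transcript has a GC content of 38.7%, the lowest of the set.

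Vamp1 encodes synaptobrevin-1, best known from spinal and brainstem synapses and from fast-spiking interneurons. It had 136, 134 and 137 CPM in KO and 161, 154 and 162 CPM in WT, the tightest groups among the 6 falls. Its level fell by 14.7% (95% interval -21.6 to -7.29%, log2 fold change -0.23, SE 0.0561, adjusted p = 0.0224). Without KO replicate 1, KO replicate 2, KO replicate 3 or WT replicate 1 the adjusted p was 0.0864, 0.115, 0.1 or 0.0651. Vamp2, the main synaptobrevin of the forebrain, measured 991 ± 39.0 CPM in KO and 1006 ± 27.4 CPM in WT (SD, n = 3 each), and the interval of its difference ran from -8.66 to 6.15%. Stx1a, which encodes syntaxin-1A, overlapped between the groups, at 112 to 123 CPM in KO and 109 to 127 CPM in WT (interval -10.6 to 9.70%).

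**Figure D2:**
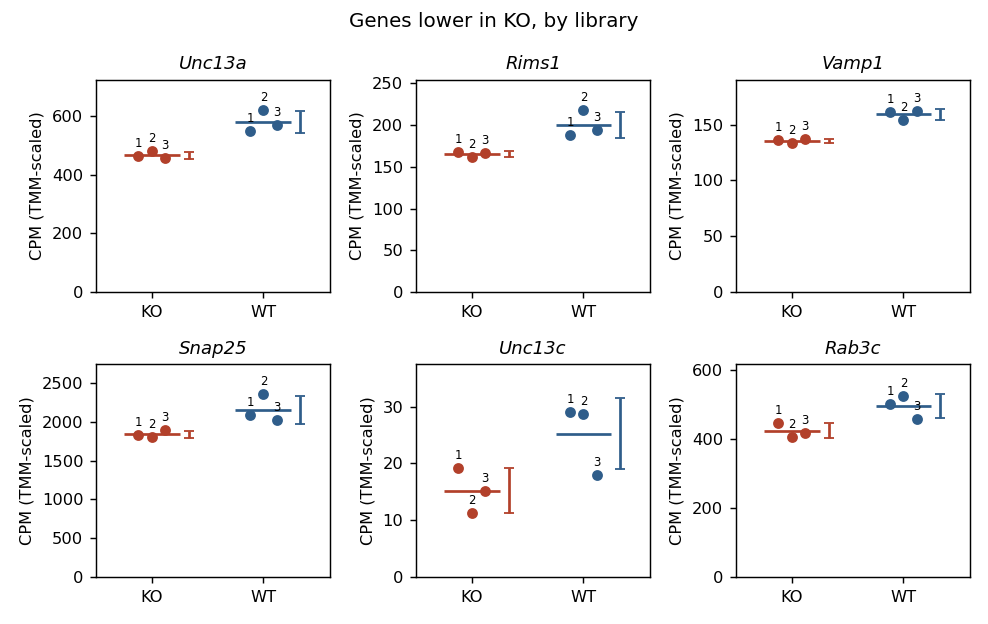
TMM-scaled CPM (vertical axis, from 0) of the 6 genes lower in KO, with 1 point per library numbered by replicate, a line at the group mean and a bar of 1 SD. KO points lie under all WT points in each panel but that of Unc13c, where KO 1 at 19.1 CPM is above WT 3 at 17.96 CPM.

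The proteins that clamp and recycle the SNARE complex did not pass the threshold. Cplx2, a complexin and the most abundant gene of the set per kilobase of exon (365 CPM per kilobase in KO and 348 in WT), had 1703, 1908 and 1789 CPM in KO. In WT it had 1628, 1764 and 1759 CPM, and the groups overlapped (log2 fold change 0.07, interval -3.28 to 13.7%, adjusted p = 0.529). Cplx1 ranged from 533 to 560 CPM in KO and from 554 to 583 CPM in WT (interval -10.8 to 3.84%). Cplx3, a complexin of ribbon synapses and of some cortical neurons, was near the bottom of the set, with 7.80, 3.40 and 7.10 CPM in KO and 8.92, 6.32 and 5.26 CPM in WT. At this depth its interval of -38.8 to 30.3% leaves its direction unresolved. Nsf, the ATPase that separates SNARE proteins, measured 1338 ± 30.6 CPM in KO and 1340 ± 65.7 CPM in WT (SD, n = 3 each, interval -7.434 to 7.597%). Napb, its beta-SNAP adaptor, ranged from 532 to 560 CPM in KO and from 552 to 625 CPM in WT (log2 fold change -0.12, adjusted p = 0.265).

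Of the active zone scaffolds, 1 of 11 passed and 9 had a fold below 0, with a median log2 fold change of -0.15. Rims1 encodes RIM1, which binds Rab3, Munc13 and calcium channels at once. It had 168, 162 and 166 CPM in KO against 188, 218 and 195 CPM in WT, with no overlap. Its level fell by 17.5% (95% interval -25.1 to -9.15%, log2 fold change -0.28, SE 0.0649, adjusted p = 0.0174), and the call was lost without KO replicate 1 (adjusted p = 0.0585), KO replicate 2 (0.0888) or KO replicate 3 (0.0855). Its paralogs Rims2, Rims3 and Rims4 did not pass. Rims4, a short RIM of the gamma class, had 86.1, 73.2 and 69.8 CPM in KO and 83.5, 91.5 and 84.4 CPM in WT (log2 fold change -0.18, adjusted p = 0.208). Rims2 and Rims3 overlapped more widely, with log2 fold changes of -0.05 each and adjusted p-values of 0.783 and 0.782.

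The giant scaffold genes leaned the same way without passing. Bsn (bassoon) had 544, 545 and 500 CPM in KO, against 542, 651 and 620 CPM in WT, where WT replicate 1 lay among the KO values (log2 fold change -0.19, SE 0.068, adjusted p = 0.126). Without WT replicate 1 its adjusted p was 0.0296, and after GC correction it was 0.0379. Pclo (piccolo) ranged from 220 to 240 CPM in KO and from 228 to 273 CPM in WT (adjusted p = 0.395). Ppfia3, which encodes liprin-alpha-3, had 166, 166 and 153 CPM in KO and 173, 185 and 193 CPM in WT, with no overlap (log2 fold change -0.18, SE 0.0628, adjusted p = 0.105, and 0.0152 after GC correction). Its paralog Ppfia2 was likewise below WT in every KO library, at 192 to 200 CPM in KO and 203 to 250 CPM in WT (adjusted p = 0.277).

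The scaffolds that link RIM to calcium channels or to the cytomatrix split in sign. Erc1, an ELKS protein found in many tissues, ranged from 56.5 to 64.9 CPM in KO and from 64.6 to 67.2 CPM in WT (log2 fold change -0.15, adjusted p = 0.215). Erc2, its brain-specific paralog, ranged from 201 to 222 CPM in KO and from 197 to 202 CPM in WT (log2 fold change 0.06, adjusted p = 0.601). Rimbp2, a RIM-binding protein that couples RIM to calcium channels, measured 239 ± 2.44 CPM in KO and 231 ± 14.8 CPM in WT (SD, n = 3 each, interval -5.44 to 13.2%). A p above the threshold does not show that these genes were equal in both groups.

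**Figure D3:**
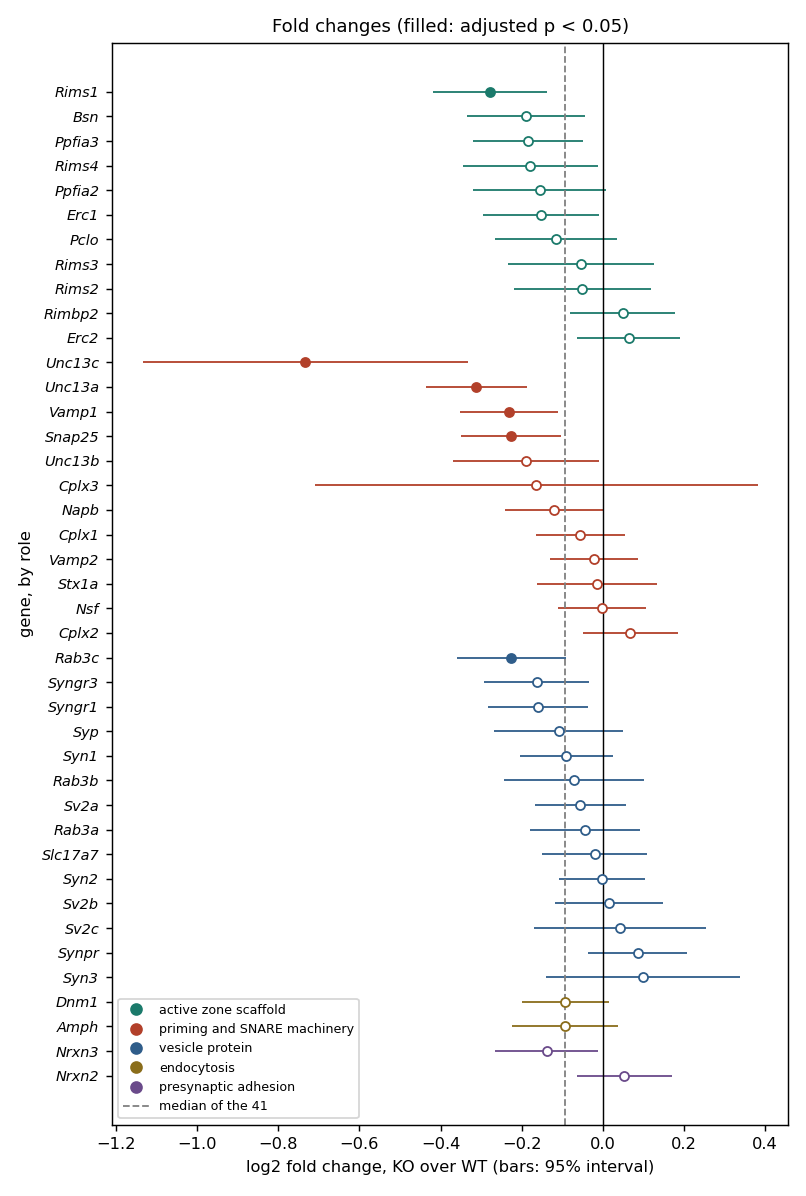
Log2 fold change of KO over WT (horizontal axis) of each of the 41 genes, grouped by role, with 95% intervals as bars, filled points for adjusted p under 0.05 and a dashed line at the median of -0.09. Points of the scaffold and priming groups lie mostly left of 0, down to -0.73 for Unc13c, and those of the vesicle proteins spread around a median of -0.05.

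Among vesicle proteins 1 of 14 passed, 10 had a fold below 0 and the median log2 fold change was -0.05. Rab3c, a vesicle GTPase that binds RIM, had 447, 405 and 418 CPM in KO and 502, 525 and 458 CPM in WT, without overlap. Its level fell by 14.5% (95% interval -22.1 to -6.08%, log2 fold change -0.23, SE 0.0627, adjusted p = 0.0458). This was the weakest call of the set. Its adjusted p was 0.0737 when scaled by library size alone, 0.0566 with a filter of 1 CPM in 3 libraries, 0.0538 after GC correction, 0.0533 without KO replicate 1, 0.197 without KO replicate 2, 0.212 without KO replicate 3, 0.122 without WT replicate 1 and 0.0945 without WT replicate 2. Rab3a, the main Rab3 of the forebrain, ranged from 432 to 473 CPM in KO and from 430 to 498 CPM in WT (adjusted p = 0.767), and Rab3b from 49.0 to 58.0 CPM in KO and from 50.1 to 57.9 CPM in WT (adjusted p = 0.679).

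The synaptogyrins, tetraspan proteins of the vesicle membrane, came nearest to the threshold among the vesicle proteins after Rab3c. Syngr1 had 480, 463 and 452 CPM in KO, against 540, 486 and 533 CPM in WT, and the groups did not overlap (log2 fold change -0.16, SE 0.0571, adjusted p = 0.124). It passed after GC correction (0.0336) and without WT replicate 2 (0.0192). Syngr3 had 153, 140 and 153 CPM in KO and 170, 161 and 167 CPM in WT, again without overlap (log2 fold change -0.16, SE 0.0601, adjusted p = 0.139). Their relative Syp (synaptophysin) had an even KO group, at 807, 831 and 818 CPM, and a wide WT group, at 927, 758 and 963 CPM. Its log2 fold change was -0.11 with an adjusted p of 0.453, and without WT replicate 2 the adjusted p was 0.0102. Synpr (synaptoporin), abundant at mossy fibre synapses of the dentate gyrus, was the 1 gene above WT in every KO library, at 143 to 146 CPM in KO and 131 to 139 CPM in WT (log2 fold change 0.09, adjusted p = 0.435).

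Synapsins, SV2 proteins and the vesicular glutamate transporter did not pass the threshold. Syn2 measured 829 ± 5.96 CPM in KO and 830 ± 28.5 CPM in WT (SD, n = 3 each, interval -7.17 to 7.43%). Syn1 ranged from 580.8 to 588.8 CPM in KO and from 588.8 to 654.4 CPM in WT, and every KO library lay below WT although KO replicate 2 and WT replicate 1 both round to 588.8 (log2 fold change -0.09, adjusted p = 0.385). Syn3, the synapsin of developing neurons and the least abundant gene of the set per kilobase, had 9.89, 10.6 and 11.1 CPM in KO and 8.72, 10.3 and 10.4 CPM in WT (log2 fold change 0.10, adjusted p = 0.677). Sv2a, Sv2b and Sv2c, transporter-like glycoproteins of the vesicle, had log2 fold changes of -0.06, 0.02 and 0.04 and adjusted p-values from 0.609 to 0.919. Intervals were wide for Syn3 (-9.22 to 26.5%) and Sv2c (-11.2 to 19.4%). Slc17a7, which encodes the glutamate transporter VGLUT1 that loads the vesicles of principal neurons, measured 1318 ± 55.1 CPM in KO and 1336 ± 107 CPM in WT (SD, n = 3 each). Vamp2, Nsf, Syn2 and Slc17a7 were the 4 genes whose 95% interval lay wholly within 10% of no change.

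Of the genes outside the vesicle and the scaffold, Dnm1 (dynamin-1, which pinches vesicles off the membrane) was the third most abundant per kilobase. It had 1386, 1417 and 1409 CPM in KO and 1410, 1546 and 1535 CPM in WT, with KO replicate 2 above WT replicate 1 (log2 fold change -0.09, adjusted p = 0.331). Amph (amphiphysin, which recruits dynamin) ranged from 280 to 296 CPM in KO and from 286 to 327 CPM in WT (adjusted p = 0.438). The neurexins, presynaptic receptors that bind neuroligins and cerebellins across the cleft, differed in sign. Nrxn3 had 195, 186 and 194 CPM in KO and 218, 217 and 199 CPM in WT, without overlap (log2 fold change -0.14, SE 0.0591, adjusted p = 0.205). Nrxn2 ranged from 239.5 to 250.7 CPM in KO and from 229.9 to 240.8 CPM in WT, with a small overlap (log2 fold change 0.05, adjusted p = 0.646).

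Within families the make-up shifted by a few percentage points at most. For 13 families of paralogs each gene's share was computed in every library from CPM per kilobase of exon, 26 shares in all, and 9 had no overlap between the groups. Levels of 25.2% of all genes tested had no overlap in either direction. With 3 against 3 libraries a two-sided exact permutation test cannot give a p under 0.1, which these 9 reached, or 0.289 adjusted over the 26. Nrxn2 made up 53.8 ± 1.20% of Nrxn2 and Nrxn3 in KO and 50.5 ± 1.501% in WT (SD, n = 3 each), the largest difference. Cplx2 made up 59.2 ± 1.37% of the complexins in KO and 57.1 ± 1.26% in WT, and the share of Cplx1 was lower in turn. Vamp1 made up 4.89 ± 0.2% of the synaptobrevins in KO and 5.60 ± 0.278% in WT. The share of Syn1 among the synapsins was 59.9 ± 0.056% in KO and 61.4 ± 1.63% in WT, and those of Syn2 and Syn3 were higher in KO. The 2 others were a higher share of Rims2 among the RIM genes (8.51 ± 0.294% in KO and 7.75 ± 0.268% in WT) and a lower share of Syp against Synpr (91.1 ± 0.178% in KO and 92.1 ± 0.711% in WT). The shares of Unc13a, Unc13b and Unc13c overlapped between the groups.

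**Figure D4:**
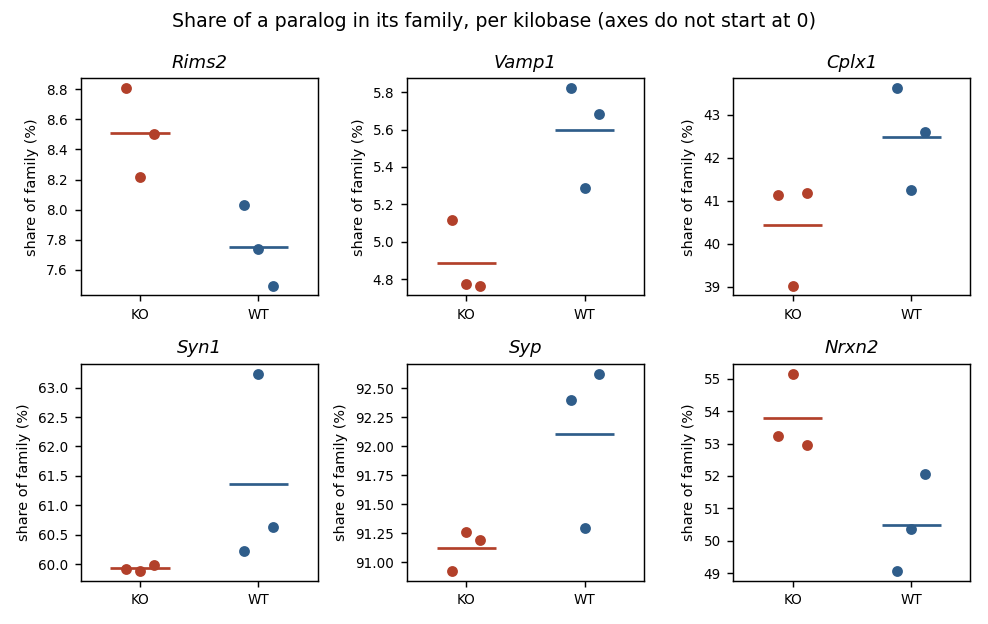
Share of a paralog in the level of its family per kilobase (vertical axis, percent, not from 0), 1 point per library and a line at the group mean, for 1 gene of each of the 6 families with a share that did not overlap. KO points lie above WT for Rims2 and Nrxn2 and below WT for Vamp1, Cplx1, Syn1 and Syp, by 3.28 percentage points for Nrxn2 and less for the others.

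The set varied more among WT libraries than among KO libraries. The median coefficient of variation was 4.18% in KO and 6.42% in WT, and it was larger in WT for 29 of the 41 genes. Genes with a mean of at least 100 CPM showed the same contrast, with 3.20% in KO and 5.65% in WT. WT replicate 2 was the highest or lowest WT library for 35 of the 41 genes (85.4%), against 70.4% of all genes tested. It was highest for 19, among them Bsn, Pclo, Rims1, Unc13a, Snap25, Syn1 and Rab3c. It was lowest for 16, among them Erc2, Vamp1, Nsf, Syp, Syn2, Sv2b, Rab3a and Slc17a7. Scaffold, priming and vesicle genes were thus found on both sides. KO replicate 1 was the extreme KO library for 34 genes (82.9%), against 68.4% of all genes. Without WT replicate 2 the count of falls stayed at 6, of which 4 were among the 6 named above, while Rab3c and Unc13c were replaced by Syngr1 and Syp.

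Fold changes within the set had little relation to the length or base composition of the transcripts. Across the 41 genes, which are not independent replicates and share the same 6 libraries, Pearson's r between fold change and the GC content of the longest transcript was 0.13 and Spearman's rho was 0.08. Over all genes tested that had a GC value they were 0.20 and 0.22. For the length of the gene r was -0.08 and for its exon bases -0.12. A loess correction for GC content in each library nevertheless changed which genes passed. It ended the calls of Snap25 and Rab3c, whose longest transcripts have 38.7% and 41.9% GC, and added Bsn, Ppfia3 and Syngr1, at 59.8%, 60.9% and 56.8% GC, for 7 falls of which 4 were shared.

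Further presynaptic genes outside the set were called about as often as all genes. Of 83 genes in 4 lists, 82 could be tested, and 5 rose in edgeR (6.10%, against 5.90% of all genes). In edgeR 0 fell, against 1.05% of all genes, and 12 were lower at an unadjusted p under 0.05 (14.6%). The share lower at that p was 7.66% of all genes and 12.3% of those with a mean of at least 100 CPM. DESeq2 called 2 of them lower and limma-voom 0. The median of their folds was -0.04 on the log2 scale, and that of the 41 was -0.09. Of 17 tested genes of SNARE fusion and priming, Baiap3 and Cadps2 rose. Cadps2 encodes a CAPS protein of dense-core vesicle priming (133 ± 1.66 CPM in KO and 102 ± 3.89 CPM in WT, SD, n = 3 each, log2 fold change 0.39, adjusted p = 6.21e-04). Of 15 active zone and adhesion genes Ptprf rose, which encodes the receptor phosphatase LAR, a partner of liprin-alpha (101 ± 3.14 CPM in KO and 78.0 ± 2.92 CPM in WT, log2 fold change 0.37, adjusted p = 0.00101). Of 24 genes of the vesicle membrane and its transporters Syngr2 rose, a synaptogyrin found mainly outside neurons (11.1 ± 0.797 CPM in KO and 7.21 ± 0.410 CPM in WT, log2 fold change 0.62, adjusted p = 0.0032). Of 26 endocytosis genes Ston2, the adaptor stonin-2, rose (14.3, 14.2 and 13.9 CPM in KO and 9.43, 10.9 and 11.8 CPM in WT, log2 fold change 0.40, adjusted p = 0.0309). The call of Ston2 was lost without KO replicate 1 (adjusted p = 0.0965), KO replicate 2 (0.092), KO replicate 3 (0.092), WT replicate 1 (0.113) or WT replicate 2 (0.0591).

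The lists of pan-neuronal, hippocampal principal neuron and interneuron markers also had medians below 0, and lists of glial markers had medians above 0. The list of thalamus, habenula and striatum, which holds neuronal genes too, had a median of 0.40. Of 10 pan-neuronal markers 1 fell, the neurofilament gene Nefl (log2 fold change -0.32, adjusted p = 0.00508), and the median of the 10 was -0.09, as for the 41 genes. The medians were -0.08 for hippocampal principal neurons (1 of 10 rose and 1 fell) and -0.06 for interneurons (0 of 10 called in edgeR). They were 0.13 for 9 astrocyte markers and 0.23 for 8 oligodendrocyte markers, of which Gfap and Mbp rose. For 5 oligodendrocyte precursor and 9 microglial markers, with 0 called in edgeR, they were 0.17 and 0.21. The median of 7 vascular markers was 0.06, with Pdgfrb higher.

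In summed level, the pan-neuronal markers had 4237 to 4379 CPM in KO and 4320 to 4703 CPM in WT. Those of astrocytes had 6055 to 6148 CPM in KO and 5461 to 5727 CPM in WT, and those of oligodendrocytes 5628 to 6332 CPM in KO and 5049 to 5490 CPM in WT. Microglial markers summed to 446 to 508 CPM in KO and 380 to 453 CPM in WT. Choroid plexus markers summed to 58.3 to 122 CPM in KO and 29.3 to 44.4 CPM in WT, with Kl higher and Kcnj13 near 0. Most of these sums came from Kl and Ttr. Kl had 59.86, 55.08 and 61.78 CPM in KO and 22.99, 22.46 and 20.4 CPM in WT. Ttr had 58.89, 1.597 and 55.95 CPM in KO and 19.06, 5.955 and 7.234 CPM in WT. It did not pass (edgeR, adjusted p = 0.151), and its level in KO replicate 2 lay below every WT library. The sums for thalamus, habenula and striatum are given above, with 3 of 7 tested genes higher. The part of these shifts in the lower presynaptic levels was not tested. In whole tissue, fewer neurons and less RNA per neuron cannot be told apart.

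**Figure D5:**
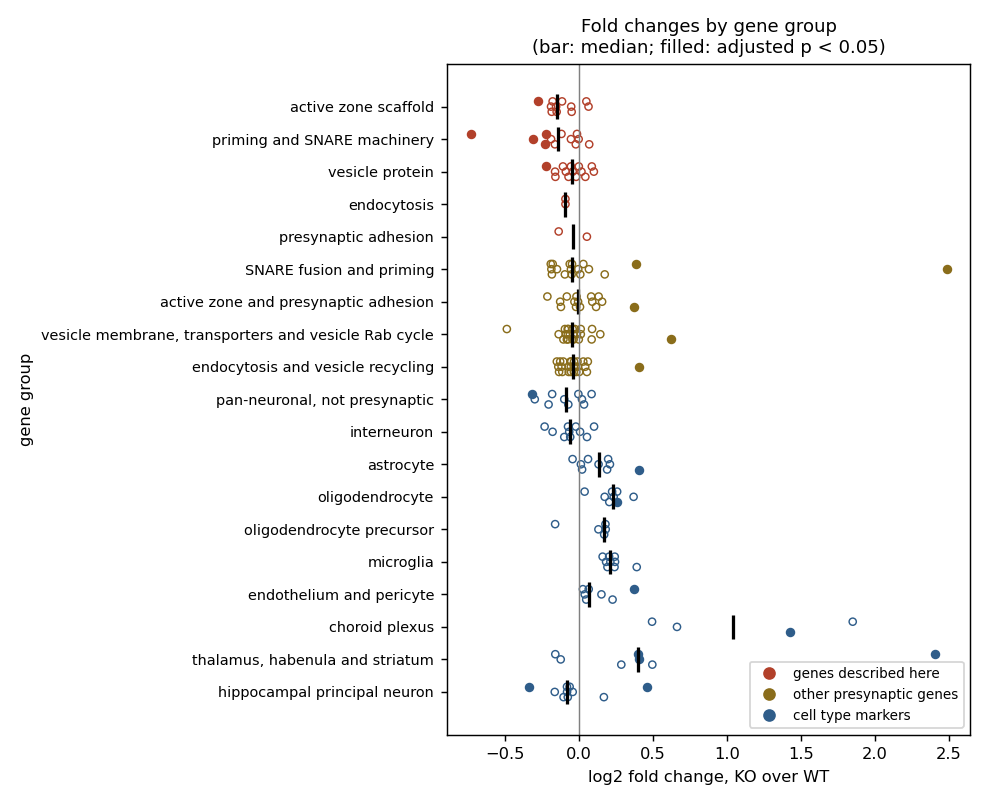
Log2 fold change of KO over WT (horizontal axis) of every tested gene in the 5 role groups described here, 4 lists of further presynaptic genes and 10 lists of cell type markers, with a bar at each median and filled points for adjusted p under 0.05. Medians run from -0.15 to -0.04 in the 5 role groups and from 0.06 to 0.23 in the glial and vascular lists, and Baiap3 stands at 2.48.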

How the data were processed

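Polyadenylated RNA of the hippocampus was sequenced from 3 KO and 3 WT libraries. The authors deposited raw counts per Ensembl gene, 1 column per library. The submitters' processing notes name cutadapt 1.18, HISAT2, HTSeq 0.11.1 and the build GRCm38. Neither a strand setting nor an annotation release is stated there, so overlapping and antisense genes could share reads. Symbols, positions, exon lengths and GC content came from GENCODE M21, and 446 identifiers had no match.

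Genes were filtered with filterByExpr (minimum count 10, minimum total 15), scaled with TMM and compared in edgeR (quasi-likelihood F-test, no covariate), with p-values adjusted by Benjamini-Hochberg over 16861 genes and a threshold of 0.05. Levels are TMM-scaled CPM, folds are log2 of KO over WT, the SE is the fold divided by the square root of F, and intervals are at 95%. CPM per kilobase divides by the union of annotated exons, which can exceed the length of the transcripts in use. All 6 libraries differed from each other beyond sampling noise, and no library was counted with another. The test was checked on simulated counts.

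Every gene of the set is named. Values of all 6 libraries are given for genes past the threshold, the 6 next by p, and the 3 most and 3 least abundant per kilobase. From each further list up to 4 genes past the threshold are named. The set and the lists were chosen with earlier results of these data known. Same-numbered libraries did not deviate together (correlations -0.02, -0.04 and -0.06 over 15301 genes), so the replicate block is an alternative only. Among differently numbered libraries the correlation was 0.173 for KO 1 with WT 2, 0.198 for KO 2 with WT 3 and 0.198 for KO 3 with WT 1. For the remaining pairs it ran from -0.172 to -0.131. The folds were also refitted in DESeq2 and limma-voom, with RLE or library size scaling, other filters, GC correction (loess, span 0.3) with and without the block, thresholds of 0.1 and 0.01, and leaving out each library. Medians of the marker lists under these settings, and the background of genes at 100 CPM or more, were added after seeing the data. Versions were edgeR 4.0.16, DESeq2 1.42.0 and limma 3.58.1, run in R 4.3.3.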

Additional observations from a re-analysis of the deposited data

How the results depend on the processing

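The cause of the shifts below was not tested. The 6 falls were 6 again with RLE scaling, limma-voom, no filter on low counts or a replicate block, all the same genes, and 5 of them remained with library size alone, DESeq2 or a filter of 1 CPM in 3 libraries. With the replicate block the median of the 41 folds was -0.0904 and no call of the 41 changed. At an adjusted p under 0.01 only Unc13a fell (1 gene). Leaving out 1 library gave 1 to 6 falls, a median of -0.1203 to -0.0734, 48 to 323 falls over all genes and 0 to 4 falls among the further presynaptic genes. The median was -0.0717 with library size alone. Falls over all genes numbered 279 with no filter and 268 after GC correction. Falls among the further presynaptic genes numbered 2 with DESeq2, 2 with the replicate block, 4 with no filter, 4 after GC correction and 5 after GC correction with the replicate block.

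Genes near no change reversed sign. With library size alone these were Stx1a (0.0062), Nsf (0.0175), Syn2 (0.0185) and Slc17a7 (3e-04), with a filter of 1 CPM in 3 libraries Nsf (0.0032) and Syn2 (0.0042), and after GC correction Nrxn2 (-0.0351, and -0.0344 with the replicate block). Over the settings without 1 library, log2 folds ran from -0.0447 to 0.0081 for Vamp2, -0.0337 to 0.0357 for Nsf, -0.0242 to 0.0246 for Syn2, -0.043 to 0.053 for Sv2b, -0.0756 to 0.0395 for Slc17a7, -0.1294 to 0.0092 for Rims2, -0.1203 to 0.0291 for Rims3, -0.0661 to 0.0452 for Stx1a, -0.3789 to 0.1231 for Cplx3, -0.0494 to 0.1556 for Sv2c, -0.0008 to 0.0905 for Rimbp2 and -0.1009 to 0.0033 for Rab3a. All 9 shares without overlap kept their direction with counts not divided by length and without any 1 library.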
